A study of Mus musculus with 8 samples.

Results

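The Hox genes of the 4 mouse clusters were followed in the embryonic small intestine with and without Rfx6. Every probe whose gene name in the scanner output is Hoxa, Hoxb, Hoxc or Hoxd with a number was taken, which gave 43 probes for 39 genes among the 55681 probes of the array. The rule rests on names and uses no measured value, but the members were chosen with earlier results of these data known. Of the 43 probes, 25 passed the detection filter described below, and these stood for 23 genes among the 23276 genes tested. The other 16 genes are given by detection and signal.

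RNA came from the whole small intestine, taken from mouse embryos at E18.5. The control group held 4 wild-type samples, labelled Rfx6+/+, and the other group held 4 samples homozygous for loss of Rfx6, labelled Rfx6-/-. The mutant allele was made by crossing mice with a floxed Rfx6 allele to CMV-Cre mice, a line that expresses Cre in most cells including the germ line, so the loss affected the whole embryo, and heterozygous parents were then intercrossed. The study asked which intestinal genes depend on Rfx6, a transcription factor of the gut and pancreas known for its role in endocrine cells. Each sample was hybridised alone to 1 Agilent array, and the labels do not say whether samples shared a litter, so p-values measure the spread between these samples.

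Hox genes encode transcription factors that bind DNA through a homeodomain. They lie in clusters in which genes at the 3′ end (low paralog numbers) are in general switched on earlier and further forward in the embryo than genes at the 5′ end (high numbers), and genes of 1 number in different clusters are paralogs. In the gut they are expressed mostly in the mesenchyme, the connective tissue and smooth muscle around the epithelium, and in enteric neurons, and the genes with the highest numbers are known for their role in the hindgut. The mouse clusters lie on chromosomes 6 (Hoxa), 11 (Hoxb), 15 (Hoxc) and 2 (Hoxd).

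The probes are 60 bases long, and 3 that could be placed in coding sequence with a conserved Hox motif, by translating each probe in its forward frames, are shown. They put a middle gene that was measured on all arrays beside high-numbered genes that were not. Capitals mark the codons of the motif, which is the core of the hexapeptide (the contact to Pbx cofactors) in Hoxa6, the third helix of the homeodomain (the helix that reads the DNA) in Hoxc11, and the stretch at the start of that helix in Hoxd10.
Hoxa6: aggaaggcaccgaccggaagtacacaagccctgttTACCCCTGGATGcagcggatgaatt
Hoxc11: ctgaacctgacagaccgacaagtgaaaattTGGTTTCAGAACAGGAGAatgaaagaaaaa
Hoxd10: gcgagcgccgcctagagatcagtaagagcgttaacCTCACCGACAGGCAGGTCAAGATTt

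On mm9 these probes lie at chr6:52158194-52158253 on the minus strand (Hoxa6), and on the plus strand at chr15:102787022-102787081 (Hoxc11) and chr2:74532280-74532339 (Hoxd10). The Hoxa6 probe was well above background on 8 arrays, the Hoxd10 probe on 1 array and the Hoxc11 probe on 0. Over all 899 pairs of probes of different Hox genes the longest shared run was 11 bases.

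The probes of paralog groups 10 to 13 were not detected in a replicated way, while most of groups 1 to 9 were. A probe was called well above background on an array by the scanner software's own flag, and a gene was tested if a probe of it carried that flag on all 4 arrays of at least 1 group. Of the 27 genes of paralog groups 1 to 9, 23 were tested, and of the 12 genes of groups 10 to 13, 0 were tested. Among those 12 genes, 6 were above background on no array and 6 on 1 or 2 arrays. A similar edge appeared in each cluster: the highest-numbered tested gene was Hoxa9, Hoxb9, Hoxc9 and Hoxd8. In the Hoxb cluster Hoxb13 was the only gene of groups 10 to 13 on the array. The Hoxa cluster had 8 of 11 genes tested, Hoxb 8 of 10, Hoxc 4 of 9 and Hoxd 3 of 9. Of the tested genes, 22 were well above background on all 8 arrays.

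**Figure D1:**
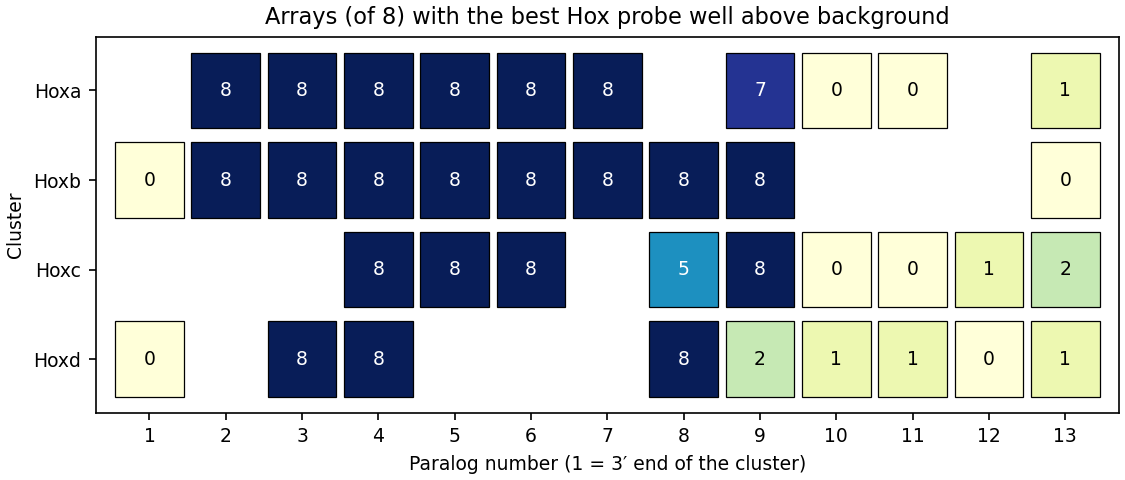
Number of arrays, of 8, on which the best probe of each Hox gene was well above background; rows are the clusters, columns the paralog numbers, and places without a number are not shown here or have no gene on the array. Groups 2 to 7 are at 8 throughout, and groups 10 to 13 lie between 0 and 2.

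The 4 genes of groups 1 to 9 that were not tested were Hoxb1, Hoxd1, Hoxc8 and Hoxd9. Hoxb1, known for its role in the hindbrain, and Hoxd1 were above background on 0 arrays. Hoxc8, a gene of the trunk, was above background on 2 control and 3 knockout arrays. Its processed signal was 35.0, 32.7, 32.9 and 34.1 units on control arrays 1 to 4 and 43.0, 52.1, 58.8 and 39.9 units on knockout arrays 1 to 4, so the groups did not overlap, before or after scaling. Hoxd9 was above background on 0 control and 2 knockout arrays, with signals of 7.9 to 17.9 units in the controls and 14.1 to 26.4 units in the knockouts, and these groups overlapped. The signals printed for Hoxc8 and Hoxd9 are before scaling and were not tested.

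The genes of groups 10 to 13 gave isolated signals. Hoxc13 was above background on control 4 at 168.1 units and on knockout 1 at 644.6 units, and lay between 4.0 and 8.9 units on the other 6 arrays. Hoxd11 was at 139.1 units on control 2, Hoxc12 at 118.2 units on control 3, Hoxd13 at 57.3 units on control 4 and Hoxd10 at 47.1 units on control 2, each above background there and nowhere else. Hoxa13, which like Hoxd13 is known for its role in the hindgut, was above background on knockout 3 at 28.9 units. No gene of these groups was above background on more than 1 array of a group, so 0 of 12 had a level shared by replicates.

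Promoter sequence was set beside detection for 22 of the 39 genes, which have 24 promoters in the RefSeq promoter table (GRCm38.p6). Over the 250 bases before the start site, CG dinucleotides numbered 3 to 28 with a median of 10 in the 12 promoters of tested genes, and 2 to 35 with a median of 16.5 in the 12 promoters of genes not tested. The ranges overlapped, and the median of all 32851 promoters in the table was 6. Hoxd8 was the highest-numbered tested gene of its cluster and Hoxd10 was above background on 1 array; their promoters are shown with every CG in capitals, 6 in Hoxd8 (chr2:74704365-74704614, plus strand, GRCm38.p6) and 20 in Hoxd10 (chr2:74691641-74691890, plus strand).
Hoxd8: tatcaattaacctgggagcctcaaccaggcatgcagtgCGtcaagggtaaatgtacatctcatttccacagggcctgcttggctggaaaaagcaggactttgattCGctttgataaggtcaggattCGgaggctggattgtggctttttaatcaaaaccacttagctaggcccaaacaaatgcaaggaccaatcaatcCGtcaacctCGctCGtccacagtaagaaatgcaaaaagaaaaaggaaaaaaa
Hoxd10: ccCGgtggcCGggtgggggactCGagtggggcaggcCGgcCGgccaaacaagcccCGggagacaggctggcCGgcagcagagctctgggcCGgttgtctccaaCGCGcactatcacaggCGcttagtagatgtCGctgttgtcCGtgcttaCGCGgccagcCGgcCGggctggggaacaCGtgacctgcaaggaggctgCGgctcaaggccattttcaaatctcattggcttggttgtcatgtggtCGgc

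Of all promoters in the table, 50.4% held at least as many CG as Hoxd8 and 17.9% at least as many as Hoxd10. The letters GTTGCC, 1 arm of the site that RFX factors bind, were found on either strand in 2 of the 24 Hox promoters (8.3%), Hoxa5 and 1 start of Hoxa10, and in 10.4% of all promoters. A match is a description of these letters and not a binding site.

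The targeted gene was examined first. Rfx6 was well above background on 8 arrays, and its level averaged -3.14 ± 0.40 (SD, n = 4) among controls against -2.76 ± 0.56 (SD, n = 4) among knockouts. Its difference of 0.38 log2 units (SE 0.29) was within the spread between replicates (limma adjusted p 0.503, exact two-sided permutation p 0.286 over 70 splits). This probe therefore did not check the labels, and the groups are named by their labels. A level, here and below, is the log2 processed signal less the 75th percentile of its array, differences are knockout minus control, and levels of different probes are not set against each other.

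Between the groups, 0 of the 23 tested Hox genes met the threshold of 0.05 on the limma adjusted p, against 4.92% of all 23276 genes, of which 543 rose and 603 fell. With median centring in place of the 75th percentile, 545 rose and 253 fell. At an unadjusted p under 0.05 there were 5 Hox genes (Hoxb3, Hoxb9, Hoxc4, Hoxc9 and Hoxd8), all higher in the knockout, beside 20.5% of all genes. In 3 of the 23 (Hoxb3, Hoxc4 and Hoxd8) every knockout array lay above every control array, where 5.4% of all genes did so, and in 0 of the 23 every knockout array lay below, where 9.25% of all genes did so. For 22 of the 23 the 95% interval of the difference lay inside a 2-fold change either way, the exception being Hoxc9. On simulated data 8.33% of the calls made by the same fit were false, at the adjusted p threshold of 0.05. There the fit called 0% of genes given a difference of 0.3, 36% at 0.6 and 86% at 2-fold. Differences as small as those of most Hox genes could therefore hardly have met the threshold.

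Most of the differences were positive, although none of the 23 met the threshold. Of the 23 genes, 19 had a positive difference, against 39.5% of all genes tested, and their median difference was 0.14, beside -0.05 for all genes. This count is a description only, since the 23 genes were read on the same arrays and their signs are not independent. With quantile normalization or median centring 19 of 23 were again positive, while 49.6% and 52.6% of all genes were. The median absolute difference was 0.14 both for the Hox genes and for all genes, and the differences ran from -0.13 (Hoxa6) to 0.66 (Hoxc9). In bulk RNA a change in the share of cells that express a gene and a change in its RNA per cell cannot be told apart.

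**Figure D2:**
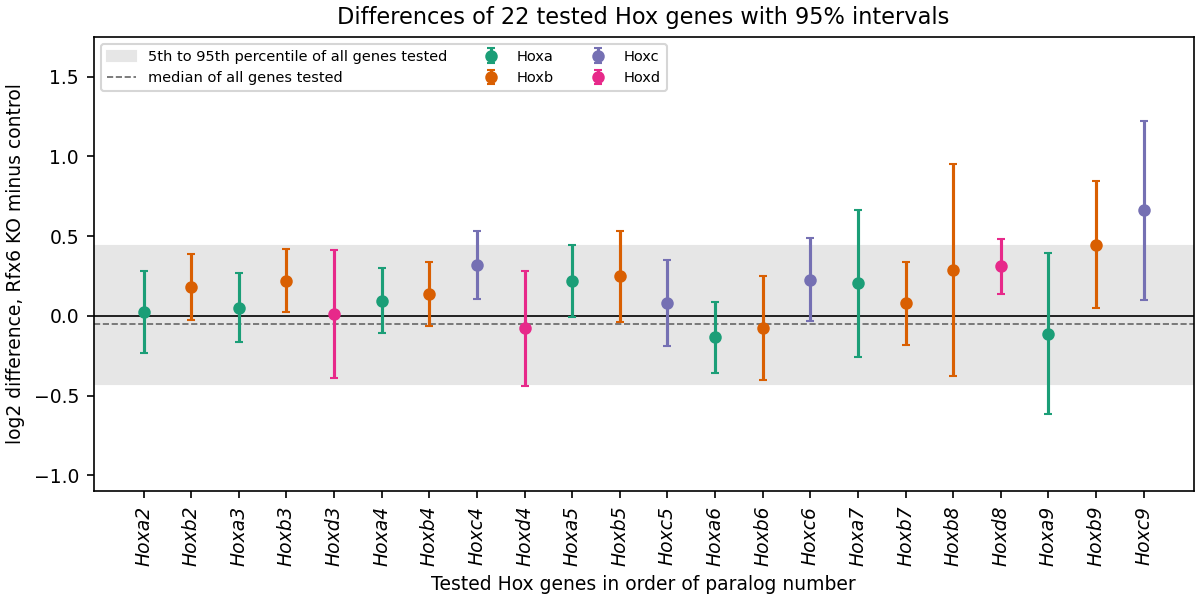
Log2 difference, Rfx6 KO minus control, of 22 tested Hox genes in order of paralog number, with 95% intervals from limma; colour is the cluster, the grey band spans the 5th to 95th percentile of all genes tested (-0.43 to 0.44) and the dashed line is their median (-0.05). Most points lie between -0.13 and 0.32, and Hoxb9 and Hoxc9 at the right are highest.

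The genes were grouped by position as anterior (groups 1 to 4), middle (5 to 8) and posterior (9 to 13). The anterior class had 10 of 12 genes tested, 9 of them with a positive difference, a median of 0.10 and a range from -0.08 to 0.32. The middle class had 10 of 11 tested, 8 positive, a median of 0.21 and a range from -0.13 to 0.31. The posterior class had 3 of 16 tested, with differences of -0.11 (Hoxa9), 0.45 (Hoxb9) and 0.66 (Hoxc9). The middle median was 0.10 without control replicate 2 and 0.11 without knockout replicate 2. Across the 23 genes the difference and the paralog number had a Spearman correlation of 0.29 and a Pearson correlation of 0.36, a description only, since the genes were read on the same 8 arrays. The Spearman value was -0.03 without control replicate 2 and 0.16 without knockout replicate 2, and over the 20 alternatives it ran from -0.23 to 0.46.

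Among the anterior genes, Hoxc4 had the largest difference. It belongs to the group that patterns the cervical vertebrae. Its level was 0.36, 0.43, 0.47 and 0.47 on control arrays 1 to 4 and 0.89, 0.84, 0.54 and 0.74 on knockout arrays 1 to 4. All knockout values lay above all control values, and the difference was 0.32 (SE 0.09, limma adjusted p 0.0926). Without knockout replicate 3, the lowest of its group, it was 0.39 with a limma adjusted p of 0.0456; over the 20 alternatives the adjusted p ran from 0.0456 to 0.278, and this was the only alternative past the threshold. Its paralog Hoxb4, also known for its effect on blood stem cells, was at 0.65, 0.96, 0.94 and 0.79 in the controls and 1.03, 0.99, 0.90 and 0.98 in the knockouts. These values overlapped, and the difference was 0.14 (SE 0.09, limma adjusted p 0.418), and 0.079 without control replicate 1.

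Hoxb3, a gene of the hindbrain and neck, was the other anterior gene whose groups did not overlap. On the probe that stands for it here, the brighter one, the level was -1.30, -1.18, -1.13 and -1.05 on the control arrays and -1.004, -0.79, -0.96 and -1.02 on the knockout arrays, a difference of 0.22 (SE 0.09, limma adjusted p 0.201). A second Hoxb3 probe, nearer the 3′ end of the transcript at chr11:96209002-96209061 on the plus strand, did not repeat this. It read -1.25, -0.78, -1.25 and -1.32 in the controls and -1.12, -0.998, -1.26 and -1.08 in the knockouts, and its difference was 0.04 (SE 0.13, limma adjusted p 0.906 in the fit of all 31662 probes, of which 4.05% were called). On the series matrix values and with normexp background correction this second probe was the brighter one, and it stood for the gene with differences of 0.02 and 0.03. With the first probe kept, a check added after the data were seen, these were 0.17 and 0.15. The gene bodies of 6 pairs of Hox genes overlap in the annotation. They are Hoxb3 with Hoxb4, Hoxa3 with each of Hoxa4, Hoxa5 and Hoxa6, Hoxd3 with Hoxd4, and Hoxd11 with Hoxd10. Hoxb2, a gene of the hindbrain, was at -0.22, -0.04, -0.25 and -0.22 in the controls and -0.04, -0.01, -0.13 and 0.18 in the knockouts, which overlapped (difference 0.18, SE 0.09, limma adjusted p 0.306). Without knockout replicate 4 it was 0.12.

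Of the other anterior genes, 5 are given here, and they differed by 0.10 or less. Hoxa2, which patterns the second pharyngeal arch, had a difference of 0.02. Hoxa3, needed for the thymus and parathyroid, had 0.05 and Hoxa4 0.10. Hoxd3 had 0.01 and Hoxd4 -0.08. Limma adjusted p-values of these 5 genes ran from 0.586 to 0.979, and their groups overlapped.

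Hoxd8, of the trunk, had the lowest p of all members and the tightest control values among the named genes. Its probe lies at chr2:74545171-74545230 on mm9, plus strand, starting at base 1230 of the transcript. The level was -1.74, -1.77, -1.76 and -1.70 on control arrays 1 to 4 and -1.43, -1.30, -1.49 and -1.51 on knockout arrays 1 to 4. The groups did not overlap. The difference was 0.31 (SE 0.08, limma adjusted p 0.0542, rank 1209 by p among all genes). With array weights the adjusted p was 0.0227, the only alternative past the threshold, and over the 20 alternatives it ran from 0.0227 to 0.233. With normexp background correction the difference was 0.20.

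Among the other middle genes that were tested the groups overlapped. Hoxb8, of the trunk, was at -1.62, -2.38, -1.39 and -1.92 in the controls and -1.18, -1.30, -2.36 and -1.32 in the knockouts; 3 knockout arrays lay above the controls and knockout 3 lay near the lowest control. The difference was 0.29 (SE 0.29, limma adjusted p 0.614), and single arrays moved it either way. It was 0.56 without knockout replicate 3 and 0.43 without control replicate 3, but 0.11 without control replicate 2, 0.17 without knockout replicate 1 and 0.03 with array weights. Hoxb5, known for its role in the enteric nervous system, was at 0.25, -0.02, 0.44 and 0.41 in the controls and 0.70, 0.60, 0.42 and 0.35 in the knockouts. Its difference was 0.25 (SE 0.13, limma adjusted p 0.312), with 2 knockout arrays above all controls, and it was 0.15 without control replicate 2. Hoxa5, which acts in the mesenchyme of lung and gut, was at -0.15, -0.36, -0.13 and -0.04 in the controls and 0.10, 0.16, 0.06 and -0.14 in the knockouts. Here 3 knockout arrays lay above all controls, and the difference was 0.22 (SE 0.10, limma adjusted p 0.26).

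Hoxc6, a gene of the thorax, was at 1.13, 1.06, 1.16 and 1.08 in the controls and 1.23, 1.65, 1.12 and 1.34 in the knockouts, with knockout 2 farthest from the rest. The difference was 0.23 (SE 0.11, limma adjusted p 0.308), and 0.12 without knockout replicate 2. Hoxa7 was at 0.10, -0.19, 0.35 and 0.81 in the controls and 0.37, 0.77, 0.42 and 0.32 in the knockouts. The highest Hoxa7 value of all arrays was a control, and the difference was 0.20 (SE 0.20, limma adjusted p 0.605). It was 0.05 without control replicate 2, 0.10 without knockout replicate 2 and 0.38 without control replicate 4. The middle genes not named so far were Hoxc5 with 0.08, Hoxb7 with 0.08, Hoxb6 with -0.07 and Hoxa6 with -0.13, all with overlapping groups and limma adjusted p-values from 0.485 to 0.802.

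Of the 3 posterior genes tested, Hoxc9 and Hoxb9 had the largest differences of all members and wide spreads. Hoxc9, which sets thoracic identity in motor neurons, was at -2.29, -2.85, -2.27 and -2.98 in the controls and -2.32, -1.33, -2.23 and -1.86 in the knockouts. Knockouts 2, 3 and 4 lay above all controls, and knockout 1 lay below 2 of them. The difference was 0.66 (95% interval 0.10 to 1.22, SE 0.25, limma adjusted p 0.175), and it was 0.40 with normexp background correction and 0.43 with the slide row as a block. Hoxb9, its paralog, was at -3.98, -3.45, -3.24 and -3.42 in the controls and -3.05, -2.77, -3.36 and -3.13 in the knockouts. All but knockout 3 lay above the controls, and the difference was 0.45 (SE 0.18, limma adjusted p 0.198). It was 0.29 without control replicate 1 and 0.20 with normexp background correction.

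Hoxa9, the third measured gene of this group, passed the filter through the knockout arrays only, with 3 control and 4 knockout arrays above background. Its 2 probes went opposite ways. The brighter one had a difference of -0.11 (SE 0.22, limma adjusted p 0.811), and the other, above background on 2 control and 4 knockout arrays, had 0.41 (SE 0.19, limma adjusted p 0.266 in the fit of all probes). No direction can therefore be given for Hoxa9.

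**Figure D3:**
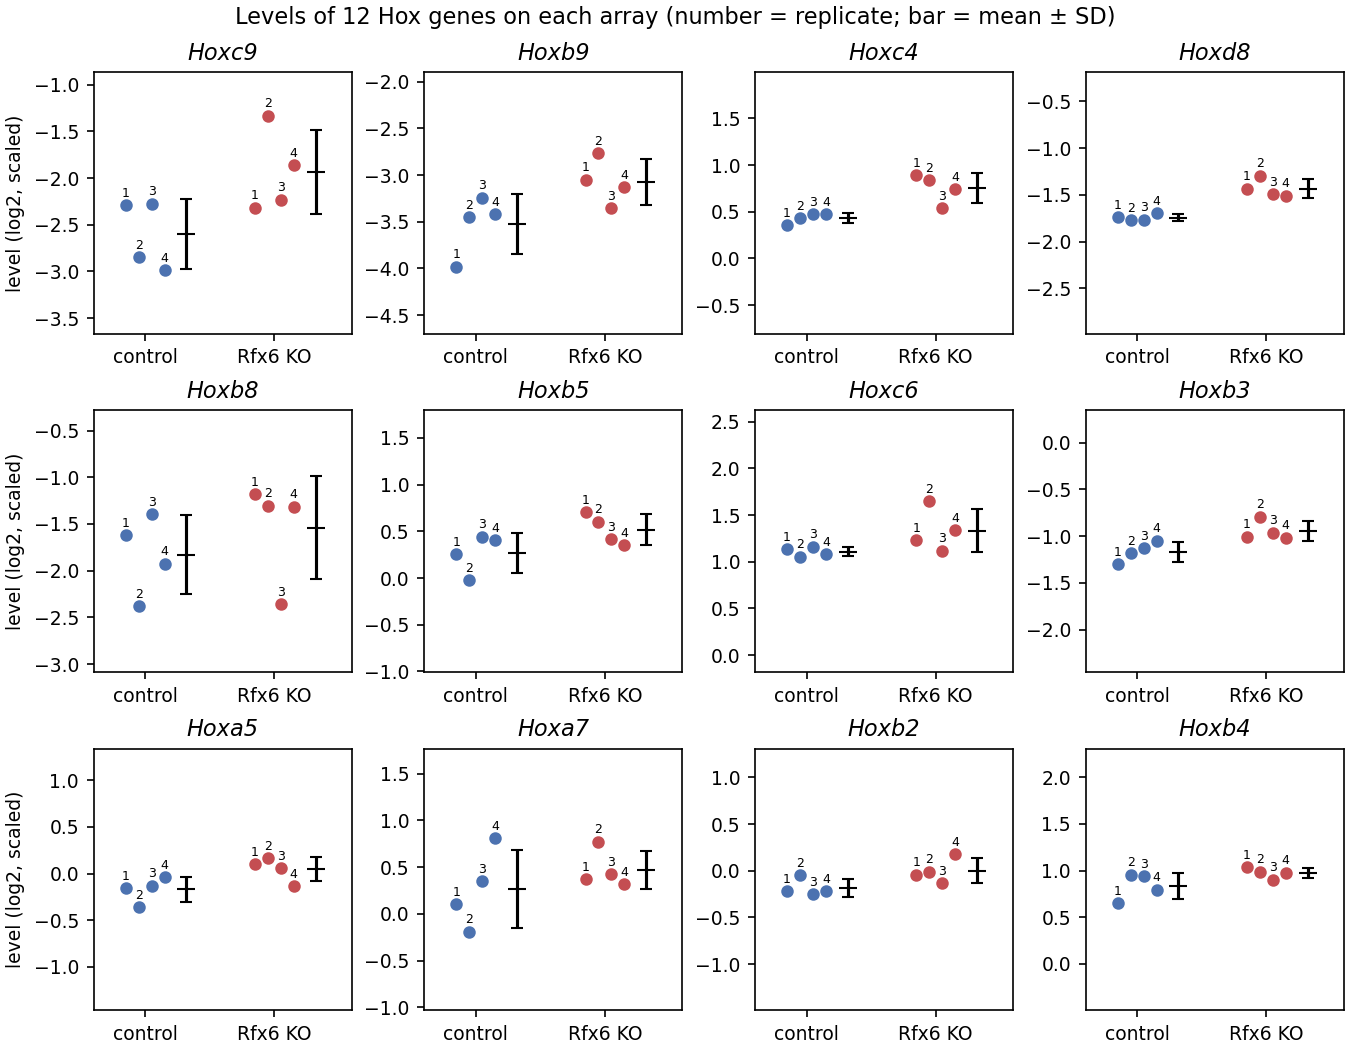
Level of the 12 Hox genes with the largest absolute difference on each array, in log2 units scaled to the array's 75th percentile; every panel spans the same number of log2 units, points are numbered by replicate, and the bars at the side are mean ± SD (n = 4). The groups do not overlap in Hoxc4, Hoxd8 and Hoxb3, while Hoxb8 and Hoxa7 have spreads as wide as their differences.

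Array by array, the mean deviation of the 23 genes from their 8-array means was -0.10, -0.08, 0.00 and -0.13 on control arrays 1 to 4 and 0.05, 0.19, -0.05 and 0.12 on knockout arrays 1 to 4. Knockout 3 thus lay within the controls and knockout 2 was highest. Middle genes were lowest on control 2 (-0.23) and highest on knockout 2 (0.24). The 11 markers of mesenchyme and smooth muscle, the cells in which gut Hox genes are mainly expressed, were all well above background on all 8 arrays and were likewise lowest on control 2 (-0.52) and highest on knockout 2 (0.42). The mean of these markers ran from -0.52 to 0.19 (control 4) on the control arrays and from -0.27 (knockout 4) to 0.42 on the knockout arrays. Other arrays did not match: the mean of all Hox genes was lowest on control 4 (-0.13) and was 0.12 on knockout 4. Anterior Hox genes had their highest control value on control 2 (0.08). All 11 mesenchyme and smooth muscle markers had positive differences with a median of 0.24, from 0.05 (Actg2) to 0.53 (Myh11), and 0 passed the test (limma; 0 at an unadjusted p under 0.05). The 8 markers of enteric neurons and glia also had 8 positive differences, with a median of 0.11 and 0 past the test (limma; 0 at an unadjusted p under 0.05). The part of these markers in the Hox differences was not tested.

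**Figure D4:**
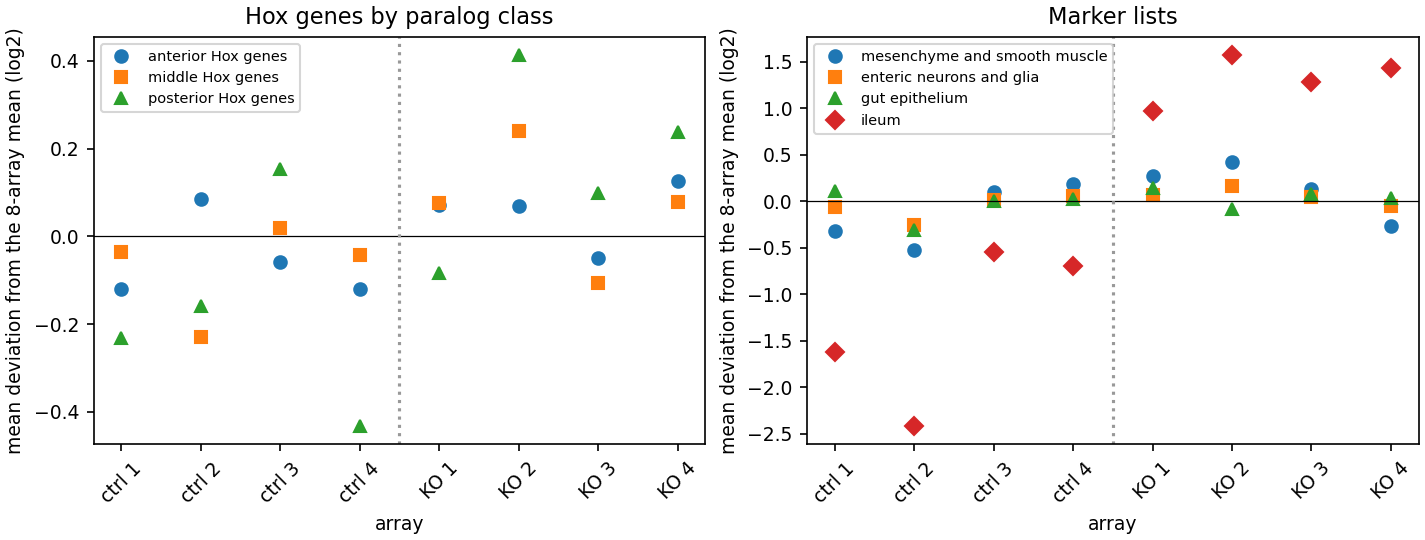
Mean deviation from the 8-array mean, in log2 units, on each array for the Hox genes by class (left: anterior 10 genes, middle 10, posterior 3) and for 4 marker lists (right), with controls left and knockouts right of the dotted line. The Hox and mesenchyme means overlap between the groups, while the ileum list lies below 0 on every control array and above 0 on every knockout array. That list includes Fgf15, which passed the filter through the knockout arrays only, so its separation is not independent of the filter. Fgf15 (6.55) and Fabp6 (5.04) had the largest differences in the list.

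Several markers of gut regions passed the test and the Hox genes did not, but these markers had larger differences than most Hox genes. Of 5 ileum markers 3 rose (Fabp6, the ileal bile acid binding protein, Fgf15 and Guca2a), with Fabp6 higher by 5.04 (SE 0.96, limma adjusted p 0.0206). Of 5 markers of duodenum and jejunum 3 fell: Fabp1 by a difference of -0.65, Gata4 by -0.51 and Cybrd1 by -0.49. Of 4 colon markers 1 rose (B3galt5, 0.89), and of 8 stomach markers 7 rose. Among these 7 only Anxa10 was above background on all 8 arrays. Gkn2, Atp4a and Cblif were so on 4 arrays, Atp4b on 5, and Gkn1, Tff1 and the ileum marker Fgf15 on 6. Those genes passed the filter through the knockout arrays only, where they were high, so their calls are not independent of the filter. Fabp1 kept its call whichever array was left out, and Fabp6 lost it without control 1, knockout 1 or knockout 2 (adjusted p 0.0709 to 0.0739). The call was lost in 4 of 8 such runs for Guca2a (not without controls 1 to 3 or knockout 1), in 5 of 8 for B3galt5 (not without controls 2 and 3 or knockout 3) and in 7 of 8 for both Gata4 and Cybrd1 (not without control 2), with adjusted p up to 0.126. All 7 markers of the gut epithelium itself were tested and 0 passed (limma; 3 at an unadjusted p under 0.05), with a median difference of 0.03. The nearby tissues counted together were liver, kidney with ureter and gonad, skeletal muscle with somite, spinal cord and spleen mesenchyme. Exocrine pancreas was left out of this count and is given below. Of 15 tested markers of these tissues, 4 (26.7%) were called, beside 4.92% of all genes. Of 4 tested markers of kidney, ureter and gonad Upk3a fell, of 3 tested markers of skeletal muscle and somite Myh3 rose, and of 6 liver markers Ttr and Fgb rose. In the same test 0 of 1 tested spinal cord markers and 0 of 1 tested spleen mesenchyme markers passed (limma; 0 at an unadjusted p under 0.05). Without 1 array the Upk3a call was lost in 7 of 8 runs (not without control 4), and those of Myh3, Ttr and Fgb in 0 of 8. Their part in the Hox differences was not tested. For exocrine pancreas (5 tested), immune cells (5 tested) and the red blood cell lineage (2 tested) 0 passed (limma; 2, 1 and 0 at an unadjusted p under 0.05).

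Genes that work with or upstream of the Hox genes were counted from lists. Of 9 TALE homeodomain cofactors (Pbx, Meis and Pknox), which bind DNA together with Hox proteins, 8 were tested and 0 passed (limma; 1 at an unadjusted p under 0.05), with a median difference of 0.06. The largest were Pknox2 with 0.37 (limma adjusted p 0.451) and Meis1 with 0.26 (limma adjusted p 0.17). Of 24 Polycomb and Trithorax regulators, which hold Hox genes silent or active, 23 were tested and 0 passed (limma; 2 at an unadjusted p under 0.05), with a median of -0.03.

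Of 6 caudal and ParaHox regulators 4 were tested and 0 passed (limma; 2 at an unadjusted p under 0.05). Cdx1 and Cdx2, which act on Hox genes and on intestinal identity, had differences of -0.17 and -0.24 (limma adjusted p 0.383 and 0.212). Pdx1, a regulator of duodenum and pancreas, had -1.09 (SE 0.28, limma adjusted p 0.0627), with all knockout arrays below all controls. Of 15 enzymes and receptors of retinoic acid, the signal that switches on 3′ Hox genes, 13 were tested and 1 fell, Aldh1a1, which makes retinoic acid (difference -0.53, SE 0.11, limma adjusted p 0.0284). Its call was lost without control 1 or 4 or knockout 1, 2 or 3 (adjusted p 0.0731 to 0.0996). The receptors Rarg and Rara had 0.25 and 0.18 and did not pass.

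Of 24 genes next to or inside the clusters 17 were on the array and 13 were tested. Snx10, near the Hoxa cluster, rose by 0.47 (SE 0.10, limma adjusted p 0.0296) and Calcoco1, near the Hoxc cluster, by 0.52 (SE 0.11, limma adjusted p 0.0314). Each call was lost in 6 of 8 runs that left out 1 array, with adjusted p up to 0.0954; Snx10 kept it without control 2 or knockout 2, and Calcoco1 without control 1 or knockout 4. The other 11 did not pass, among them the transcript antisense to Hoxa11 with -0.22 (limma adjusted p 0.603). Evx1 and Evx2, the homeobox genes at the 5′ ends of the Hoxa and Hoxd clusters, were above background on 0 arrays. Of 6 tested foregut regulators Pitx1 rose (0.69, limma adjusted p 0.0114) and Gata4 fell (-0.51, limma adjusted p 0.0396), and of 4 tested hindgut regulators 0 passed (limma; 1 at an unadjusted p under 0.05). These lists had median differences of 0.02 and 0.09, beside -0.05 for all genes tested.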

How the data were processed

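RNA of 8 samples was read on 8 single-colour Agilent arrays (cyanine 3, 100 ng of total RNA, per the labels' protocols) on 1 slide with 1 scan, with a probe grid on mm9. Control 1 and knockouts 2, 3 and 4 lay on slide row 1, and controls 2, 3 and 4 and knockout 1 on row 2. Slide row and group were thus only partly separated, and the main fit did not include the row. The deposited files give an intensity per spot; the processed signal is an intensity from which Agilent Feature Extraction 10.10.1.1 had subtracted background, per the file headers, unscaled between arrays. The authors' series matrix holds an intensity per spot that matched quantile-normalized spot medians.

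Of 62976 spots per array, 3671 control spots and 153 to 355 outlier spots were left out, and 0 gene spots were saturated. This set aside all values of 430 probe readings, among them 1 Hoxa13 probe on control 2. The 75th percentile used for scaling lay between 635.8 and 740.6 units, and each array had 57.4% to 67.1% of its probes flagged as well above background; precision is limited by the number of arrays. The brightest passing probe stood for a gene. Groups and replicate numbers came from the source labels. The main test was limma 3.58.1 (lmFit, then eBayes) in R 4.3.3; its two-sided p-values were adjusted by Benjamini-Hochberg over every gene tested, at a threshold of 0.05; the fit was tested on simulated data. Same-numbered replicates did not deviate together (correlations of deviations -0.07, -0.17, 0.07 and -0.41), and the main fit did not pair samples by number. These correlations cannot show whether samples shared a litter.

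Probes were named by current symbol (26320), accession (2864) or synonym (492) in a RefSeq table of GRCm38.p6, and 26005 kept their own name. Members and lists were chosen with earlier results of these data known. By the naming rule, the 12 Hox genes with the largest absolute difference have all values printed, with listed genes past the threshold; the other Hox genes, the unlisted examples and the sequences were chosen after values were seen. The 20 alternatives covered background correction, scaling, filtering, probe choice, series matrix values, blocks, weights, the variance prior and leaving out each array. Protein sequences were not used here, and 1 Hox gene and 1 probe sequence are counted but not reported here.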

Additional observations from a re-analysis of the deposited data

Results flagged for a closer look

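The probe that stands for each tested Hox gene, and each probe that was above background on at least 1 array but did not pass the filter, were examined in the control and in the knockout samples, without groups that lack a value. Of these 61 groups of 4 values, 5 (8.2%) had a highest or lowest value far from the other 3 by Dixon's criterion. Chance gives about 1 in 20 only for groups that were not chosen by their values. Probes that did not pass the filter could enter through a single bright array, so 8.2% cannot be set against that share. Hoxa2 was at -1.27 on knockout 1, with the other knockouts between -1.62 and -1.56. Hoxb8 was at -2.36 on knockout 3, with the others between -1.32 and -1.18. Both genes were well above background on all 8 arrays.

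The other values belong to genes that were not tested. Hoxc13 was at -2.05 on control 4, with the other controls between -6.95 and -6.30, and at -0.20 on knockout 1, with the other knockouts between -7.32 and -7.18. Hoxd11 was at -2.33 on control 2, with the other controls between -7.00 and -6.31. In each of these the outlying array was the only one of its group above background.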

How the results depend on the processing

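The 20 alternatives were run for the counts of called genes, the class medians, the correlation with paralog number, every tested Hox gene, Rfx6 and the 22 listed genes past the threshold. Hox genes called lower numbered 0 under all of them. Hox genes called higher numbered 0 under 18 of them and 1 with array weights (Hoxd8, adjusted p 0.0227) and 1 without knockout replicate 3 (Hoxc4, adjusted p 0.0456), so leaving out replicates gave 0 to 1. The median difference of all Hox genes ran from 0.08 to 0.20 and that of the anterior class from 0.05 to 0.17. The middle median was 0.069 with array weights and 0.10 to 0.24 when replicates were left out. The posterior median was 0.20 with normexp background correction, and -0.35 with no filter, where all 16 posterior genes entered; leaving out replicates gave 0.29 to 0.54. The 12 Hox genes with all values printed kept a positive difference under each alternative, and 7 of the other 11 tested Hox genes changed sign under at least 1. The 12 were picked for the size of their difference in the same data, so this contrast follows in part from that choice. The 22 listed genes kept their sign; 10 of them passed the threshold under every alternative that tested them, and the fewest alternatives passed was 5 (Upk3a). Positive Hox differences numbered 17 of 23 with normexp, 24 of 39 with no filter and 17 of 23 with the slide row as a block. With the replicate number as a block 0 Hox genes were called, and 268 genes in all were called higher and 148 lower. Over the alternatives the genes called numbered 268 to 829 higher and 148 to 1269 lower, the highest with array weights, beside 543 and 603; with no filter they were 298 and 202, with median centring 545 and 253, and leaving out replicates gave 335 to 509 and 217 to 589. The cause of these shifts was not tested. Probes that are not well above background set the limit for groups 10 to 13.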
